A study of Mus musculus with 6 samples.

Results

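The complement genes considered here are 8 listed gene symbols for components and regulators of complement that stromal cells make, namely C1ra, C1s1, C2, C3, C4b, Cfb, Masp1 and Serping1. All of them were found among the 26264 gene symbols of the count tables. The cells were immortalized brown preadipocytes of wild-type Bl6N mice, derived from the stromal vascular fraction of interscapular brown fat and immortalized with the SV40 large T antigen. Whether the line is 1 clone is not given in the sources used here. Cells were pretreated for 48 h with 5.5 nM fibroblast growth factor 8 (FGF8) or left untreated, and were then harvested directly (day 0) or after adipogenic differentiation for the times labelled day 3 and day 7. Differentiation began with 2 days of induction with insulin, T3, IBMX, dexamethasone, indomethacin and rosiglitazone. Insulin, T3 and rosiglitazone were kept afterwards. Day 0 cells had not received this induction, so a change from day 0 cannot be told apart from an effect of these drugs. The study's methods call the controls vehicle-treated. Its text counts days from the end of the pretreatment, which keeps day 3 and makes the harvest labelled day 7 day 9, since that label leaves out 2 days of induction, so the interval between these harvests is longer than their labels read. A growth protocol attached to the samples describes primary white preadipocytes, whereas titles, cell line entries and series text describe the immortalized brown line. There was 1 library for each of the 6 combinations of treatment and day. No difference between 2 libraries therefore has a replicate check, and intervals given for such a difference cover counting error only.

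Complement is a cascade of plasma proteins that tags microbes and damaged cells for uptake or lysis. In the classical pathway, C1q bound to antibody activates the proteases C1r and C1s, which cleave C4 and C2 to build a convertase that in turn cleaves C3. The lectin pathway reaches C4 and C2 through MASP proteases, and the alternative pathway builds a C3 convertase with factor B. C1 inhibitor, encoded by Serping1, blocks C1r, C1s and the MASP proteases. The liver makes most of the circulating proteins, and fibroblasts and adipocytes also transcribe several of these genes.

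With FGF8, 7 of the 8 transcripts were at least 2-fold lower than in untreated cells on every one of the 3 days: C1ra, C1s1, C2, C3, C4b, Cfb and Serping1. Of all 13256 genes that averaged 20 normalized counts or more across the libraries, 3.79% met the same rule. The 8 were chosen with earlier results of these data known, so the shares set beside their counts describe and do not test an excess. C1s1, C4b, Cfb and Serping1 passed a 4-fold rule on each day, against 0.468% of all genes. Masp1 was the exception, being higher with FGF8 at day 0, lower at day 3 and near its untreated level at day 7. In bulk RNA, fewer cells of a type and less RNA per cell cannot be told apart.

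The libraries held between 16403254 and 38551551 counts, and a normalized count is a count divided by the median-of-ratios size factor of its library. Markers of the labelled cell type were present: in untreated cells the 8 adipocyte markers summed to 8662, 357770 and 610149 normalized counts at days 0, 3 and 7, and after FGF8 to 3697, 626366 and 710031. At day 0 Lpl made up most of both sums, at 8251 in untreated cells and 2025 with FGF8, whereas Ucp1 was at 0 and 1328. Adipoq, Plin1, Cidec and Cidea were at or near 0 in both day 0 libraries. The 8 preadipocyte markers (among them Pdgfra, Dlk1, Ly6a and Cd34) summed to between 191539 and 194747 in the untreated libraries and between 45372 and 77575 in the FGF8 libraries, so this list was lower with FGF8 together with the complement genes. The steady untreated sum covers members that moved apart: Pdgfra was at 68261 at day 0 and 13042 at day 7 and Cd34 at 15084 and 702, while Col1a1 was at 61456 and 163720. By the 2-fold rule 6 of these 8 markers were lower with FGF8 at day 0 (10.8% of all genes). Thy1 was higher there, at 4427 against 2773. The 7 averaging 20 normalized counts or more in the pair were all lower at day 3 (12.1% of all genes) and day 7 (8.74%). Thy1 was among them, at 467 against 1722 and at 273 against 1293. The part of this list in the complement result was not tested. The 11 macrophage markers summed to 313, 255 and 231 in untreated cells at days 0, 3 and 7, and to 188, 144 and 139 after FGF8. Only 3 of them averaged 20 normalized counts or more in these pairs. Of the 3, 1 was at least 2-fold lower with FGF8 at day 0 and 2 at day 3 and at day 7, beside the shares of all genes given above. Adgre1, C1qa, C1qb and C1qc had 0 counts in every library. Hepatocyte markers summed to between 1.47 and 19.0, with 3 of 6 at 0 throughout. The 6 endothelial markers summed to 1625 in untreated cells at day 0 and to between 204 and 219 later, and lay between 37.4 and 76.8 in the FGF8 libraries. Kdr (1288) and Tek (326) made up nearly all of the 1625, and with FGF8 at day 0 they were at 7.68 and 42.2. Pecam1, Cdh5, Vwf and Cldn5 were at 1.47, 4.41, 4.41 and 0 in untreated cells at day 0. With FGF8 they were at 12.8, 8.96, 3.84 and 1.28.

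The 250 bases upstream of the start sites of C1ra, C3, C4b and Cfb are shown as examples of members that hold a match to a motif of an inflammatory or adipogenic factor. C1s1 also holds a C/EBP match, at -242 to -235 relative to its start site, and is not printed. They were read from GRCm39 with the GENCODE M39 canonical start sites, at chr6:124489114-124489363 on the plus strand for C1ra, and on the minus strand at chr17:57535156-57535405 for C3, chr17:34962913-34963162 for C4b and chr17:35081560-35081809 for Cfb. All are written 5′ to 3′ with the match in capitals. The capitals are a C/EBP match in C1ra and in C3, an NF-kB match followed by a match to the core of the interferon-stimulated response element in C4b, and an NF-kB match in Cfb.
C1ra: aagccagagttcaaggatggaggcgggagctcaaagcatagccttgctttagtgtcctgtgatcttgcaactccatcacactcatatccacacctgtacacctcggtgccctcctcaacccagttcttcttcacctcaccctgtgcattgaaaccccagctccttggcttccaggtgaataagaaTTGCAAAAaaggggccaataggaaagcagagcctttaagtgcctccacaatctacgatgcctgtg
C3: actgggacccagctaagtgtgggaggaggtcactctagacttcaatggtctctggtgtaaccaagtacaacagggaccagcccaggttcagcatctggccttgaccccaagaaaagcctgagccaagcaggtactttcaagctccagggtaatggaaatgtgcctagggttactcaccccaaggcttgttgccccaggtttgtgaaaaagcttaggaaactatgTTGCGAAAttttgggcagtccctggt
C4b: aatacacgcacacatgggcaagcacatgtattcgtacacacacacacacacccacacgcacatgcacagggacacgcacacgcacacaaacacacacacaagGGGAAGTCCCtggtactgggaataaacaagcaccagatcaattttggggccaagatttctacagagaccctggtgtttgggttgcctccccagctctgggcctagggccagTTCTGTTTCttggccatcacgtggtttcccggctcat
Cfb: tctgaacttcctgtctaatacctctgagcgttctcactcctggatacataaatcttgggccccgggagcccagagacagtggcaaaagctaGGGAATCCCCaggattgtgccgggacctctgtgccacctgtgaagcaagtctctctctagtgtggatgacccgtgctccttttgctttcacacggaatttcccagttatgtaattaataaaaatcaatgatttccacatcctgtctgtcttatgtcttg
The C/EBP pattern searched was TTGCNNAA, the interferon-stimulated response element core was GAAANNGAA and the gamma-activated site (GAS) was TTCNNNGAA, each on both strands, and NF-kB was its degenerate consensus. C/EBP matches stood in 3 of the 8 members (C1ra, C1s1 and C3) and in 9.05% of 19091 promoters of the same length. NF-kB matches stood in 2 members (C4b and Cfb) and in 5.49% of promoters, the interferon element core in 1 member (C4b) and 7.36% of promoters, and the GAS pattern in 0 members and 7.17% of promoters. In C3 the match lies 26 to 19 bases before the start site, in C1ra 65 to 58, in Cfb 159 to 150, and in C4b 148 to 139 for NF-kB and 37 to 29 for the interferon element core. A match is only a run of letters and was not tested for binding.

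C1ra and C1s1 encode the protease pair of the C1 complex and lie next to each other on chromosome 6, C1ra at chr6:124489364-124500402 on the plus strand and C1s1 at chr6:124507297-124559389 on the minus strand (GRCm39). C1ra had 6043, 10678 and 7544 normalized counts in untreated cells at days 0, 3 and 7, and 686, 2681 and 1084 after FGF8. C1s1 was at 27108, 23741 and 10985 in untreated cells and at 2566, 5619 and 2242 after FGF8. For both genes even the lowest untreated library lay above the highest FGF8 library. In the same order of days, C1ra had log2 fold changes with FGF8 of -3.14 (95% counting interval -3.27 to -3.01), -1.99 (-2.05 to -1.94) and -2.80 (-2.88 to -2.72). That of C1s1 was -3.40 (-3.47 to -3.33), -2.08 (-2.12 to -2.04) and -2.29 (-2.35 to -2.23). Both differences were smallest at day 3. Per kb of exon, C1s1 was above C1ra in all 6 libraries, by 4.12-fold, 2.04-fold and 1.34-fold in untreated cells and 3.43-fold, 1.92-fold and 1.90-fold after FGF8. The course over differentiation differed between the treatments: in untreated cells C1s1 moved by a log2 fold change of -0.19 from day 0 to day 3, against 1.13 after FGF8, and C1ra by 0.82 against 1.96.

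C4b and C2 encode the substrates of C1s that form the classical C3 convertase. Both lie in the complement cluster of chromosome 17, C4b at chr17:34947354-34962912 and C2 at chr17:35081578-35117241, on the minus strand. C4b rose through differentiation from 1000 normalized counts to 13183 and 28059 in untreated cells, and from 35.8 to 2679 and 4441 after FGF8. C2 went the other way, from 5288 to 253 and 278 in untreated cells and from 686 to 70.9 and 50.4 after FGF8. Within each day, the FGF8 library was the lower for both genes. The day 0 difference of C4b, -4.76 on the log2 scale (-5.40 to -4.26), rests on 28 counts in the FGF8 library, and it was -2.30 at day 3 and -2.66 at day 7. For C2 the log2 fold changes were -2.94, -1.82 and -2.44, the last of them (-2.88 to -2.08) resting on 62 counts with FGF8. Per kb of exon, C2 was 7.42-fold above C4b in untreated cells and 26.9-fold above it after FGF8 at day 0, and by day 7 the ratio of C2 to C4b had dropped to 0.0139 and 0.0159.

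C3, the protein on which all 3 pathways converge, is at chr17:57510964-57535155 on the minus strand. It had 668, 123612 and 92030 normalized counts in untreated cells at days 0, 3 and 7. After FGF8 it had 48.6, 48136 and 13414. The differentiated libraries were thus far above the day 0 libraries under both treatments, and the FGF8 library was the lower on each day. Ranked by normalized counts per kb of exon, C3 stood at 5994, 6 and 17 in untreated cells and at 11628, 36 and 294 after FGF8. With FGF8 the log2 fold changes were -3.75 (-4.30 to -3.30), -1.36 (-1.37 to -1.35) and -2.78 (-2.80 to -2.76). The day 3 value was the smallest difference of C3 and of the 7 genes lower on every day.

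Cfb encodes factor B, the serine protease of the alternative pathway convertase. It lies at chr17:35074852-35081559, with 18 bases between its span and that of C2 on the same strand. Its normalized counts were 2180, 17618 and 19818 at days 0, 3 and 7 in untreated cells, and 173, 3806 and 1512 after FGF8. Untreated cells stayed near the day 3 level at day 7, with a log2 fold change of 0.17 (0.14 to 0.20), whereas the FGF8 library of day 7 was lower than that of day 3 by -1.33 (-1.41 to -1.26). On the log2 scale the FGF8 differences were -3.65, -2.21 and -3.71. Nelfe, on the opposite strand, shares 1704 exonic bases with Cfb, and whether the counting used strand is not given in the sources used here. Nelfe was slightly higher with FGF8 on each day, by 0.33, 0.28 and 0.34.

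Serping1 encodes C1 inhibitor, at chr2:84595705-84620873 on the minus strand. It had 5025, 1942 and 4778 normalized counts in untreated cells at days 0, 3 and 7, a dip at day 3 followed by a return. After FGF8 it had 438, 338 and 328, with no such return. The FGF8 difference was -3.52 (-3.69 to -3.36), -2.52 (-2.67 to -2.37) and -3.86 (-4.01 to -3.72) on the log2 scale, and every untreated library lay above every FGF8 library. C1ra, C1s1 and Serping1 were the 3 of 8 members separated in this way across the days, against 5.36% of all genes. The inhibitor was lower together with its target proteases: per kb of exon, Serping1 relative to C1s1 was 0.212, 0.0935 and 0.497 in untreated cells and 0.195, 0.0688 and 0.167 after FGF8, so the ratios were close at day 0 and apart at day 7.

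Masp1 encodes the lectin pathway protease MASP-1 and its splice products, at chr16:23268167-23339779 on the minus strand. It was the scarcest member per length in 5 of the 6 libraries, with 404, 115 and 27.7 normalized counts in untreated cells and 1095, 19.7 and 25.2 after FGF8. The FGF8 library was the higher at day 0, the lower at day 3 and close to the untreated one at day 7. The log2 fold changes were 1.44 (1.24 to 1.64), -2.48 (-3.21 to -1.92) and -0.13 (-0.86 to 0.58). The day 3 value rests on 28 counts with FGF8, and the day 7 pair, with 39 and 31 counts, did not differ beyond counting error.

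**Figure D1:**
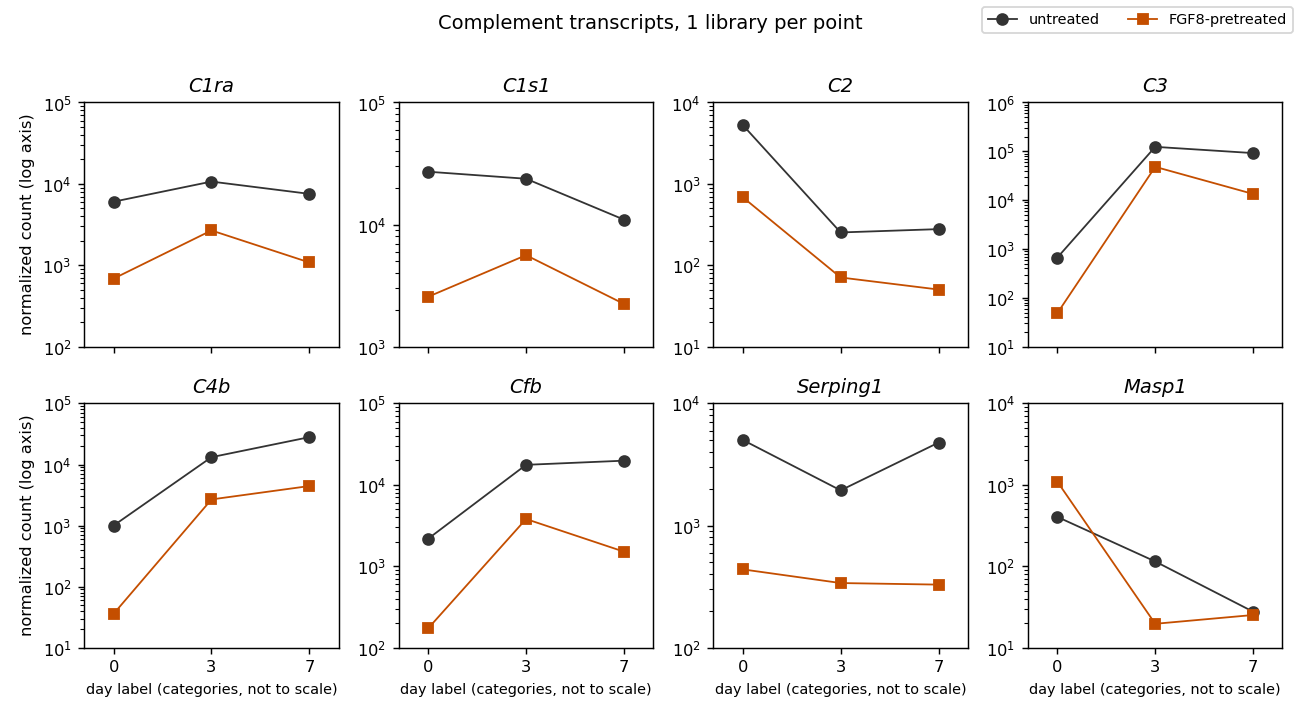
Normalized counts (log axis, scaled separately for each gene) of the 8 complement genes by day label, with 1 library per point, circles for untreated and squares for FGF8-pretreated cells. The FGF8 squares lie below the circles on all 3 days in 7 panels, and above them at day 0 in the Masp1 panel (1095 against 404).

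Seen together, 7 of the 8 members were at least 2-fold lower with FGF8 at day 0, where 10.8% of all genes averaging 20 normalized counts or more in the pair were, and 1 (Masp1) was at least 2-fold higher, where 7.27% of all genes were. All 8 were lower at day 3 (12.1% of all genes) and 7 at day 7 (8.74% of all genes). The median log2 fold change of the members was -3.46, -2.14 and -2.72 at days 0, 3 and 7, beside 0.05, 0.08 and 0.08 over all genes. In the plot of fold changes, day 3 gave the smallest difference for C1ra, C1s1, C2, C3, C4b, Cfb and Serping1. Whether the response differed between days could not be tested with 1 library per condition.

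**Figure D2:**
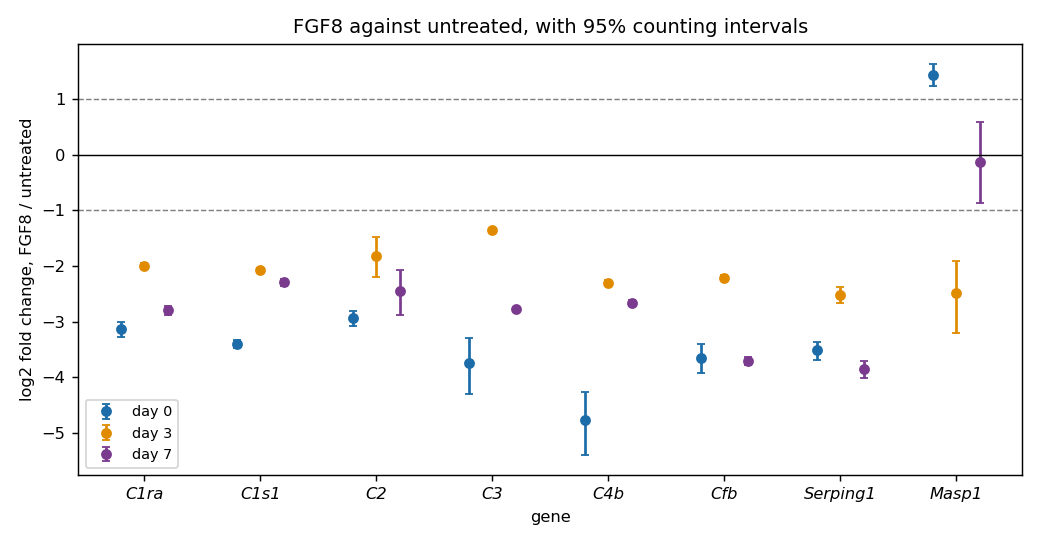
Log2 fold change of FGF8 over untreated cells for each gene at days 0, 3 and 7, with bars for the 95% interval of the ratio of 2 counts (counting error only) and dashed lines at a 2-fold change. All points except those of Masp1 at day 0 (1.44) and day 7 (-0.13) lie below the lower dashed line.

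Whether FGF8 had an effect common to the 3 days was examined by quasi-likelihood in edgeR. Day entered as a blocking term and the days stood in for replicates, so that a response differing between days counts as error. By this test 5 of the 8 genes fell (adjusted p under 0.05 after Benjamini-Hochberg adjustment over 14569 genes) and 0 rose, where 1.25% of all genes fell. Their log2 effects were -3.33 for Serping1 (SE 0.293, edgeR adjusted p = 0.0429, lower in 3 of 3 days), -2.66 for C1ra (SE 0.257, edgeR adjusted p = 0.0429, 3 of 3), -2.46 for C2 (SE 0.248, edgeR adjusted p = 0.0429, 3 of 3), -3.21 for Cfb (SE 0.362, edgeR adjusted p = 0.0451, 3 of 3) and -2.61 for C1s1 (SE 0.318, edgeR adjusted p = 0.0464, 3 of 3). C4b (-3.13, SE 0.523, edgeR adjusted p = 0.0724) and C3 (-2.60, SE 0.511, edgeR adjusted p = 0.0899) did not pass, although lower on 3 of 3 days, and both had an unadjusted p under 0.05. Masp1 had -0.30 (SE 0.836, edgeR adjusted p = 0.857). These adjusted p lie just under the threshold and depend on the days that enter. Without day 3 or without day 7, edgeR called 0 of the 8 and 0 of all genes. In each case 7 of the 8 had an unadjusted p under 0.05, beside 1510 of 14256 and 1868 of 13743 genes in either direction. Without day 0 it called 7 of the 8 lower, but also 1661 of 14367 genes. DESeq2's Wald test in the same design called 7 lower, beside 1229 of 14569 genes. Over the alternatives tried, edgeR and DESeq2 adjusted p of the 5 genes ran from 7.26e-22 to 1.00, the highest in a fit without the day block.

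The members moved in opposite directions between day 0 and day 3. Differentiation and the drugs of the induction medium cannot be told apart in these changes. From day 0 to day 3 in untreated cells, C3, C4b and Cfb were at least 2-fold higher (19.5% of all genes) with log2 fold changes of 7.53, 3.72 and 3.01, and C2, Serping1 and Masp1 were at least 2-fold lower (15.5% of all genes) with -4.38, -1.37 and -1.81. After FGF8, 5 members were at least 2-fold higher over the same interval (24.1% of all genes), C1ra and C1s1 in addition to those 3, and 2 were lower (22.0% of all genes), C2 and Masp1. The rises after FGF8 started from lower day 0 levels, with log2 fold changes of 9.92 for C3, 6.18 for C4b and 4.45 for Cfb.

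The edgeR quasi-likelihood test of day 3 against day 0, with both treatments standing in for replicates, called 4 members higher (26.2% of all genes) and 2 lower (19.8% of all genes). The log2 effects were 8.75 for C3 (SE 0.801, edgeR adjusted p = 0.00352), 3.85 for Cfb (SE 0.454, edgeR adjusted p = 0.00526), 4.77 for C4b (SE 0.686, edgeR adjusted p = 0.00767) and 1.46 for C1ra (SE 0.302, edgeR adjusted p = 0.0177), each in 2 of 2 treatments. They were -3.78 for C2 (SE 0.315, edgeR adjusted p = 0.0032) and -3.60 for Masp1 (SE 1.05, edgeR adjusted p = 0.0426), each in 2 of 2 treatments. Serping1 (-0.78, edgeR adjusted p = 0.112) and C1s1 (0.49, edgeR adjusted p = 0.313) did not pass. The calls were the same genes in the alternatives tried for this contrast, which were DESeq2's Wald test, DESeq2 size factors in edgeR and no filter.

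From day 3 to day 7 in untreated cells, C4b and Serping1 were at least 2-fold higher (8.77% of all genes) with log2 fold changes of 1.09 and 1.30, and C1s1 and Masp1 were lower (4.42% of all genes) with -1.11 and -2.01. After FGF8, C1ra, C1s1, C3 and Cfb were at least 2-fold lower (5.40% of all genes), with -1.31, -1.33, -1.84 and -1.33, and no member was 2-fold higher. The edgeR quasi-likelihood test of day 7 against day 3 called 0 of the 8 (0.00686% of all genes lower and 0.0618% higher). An unadjusted p under 0.05 was found for 2 (C1ra and C1s1), beside 3110 of 14569 genes. DESeq2's Wald test called 1 lower, C1s1, beside 472 of 14569 genes.

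**Figure D3:**
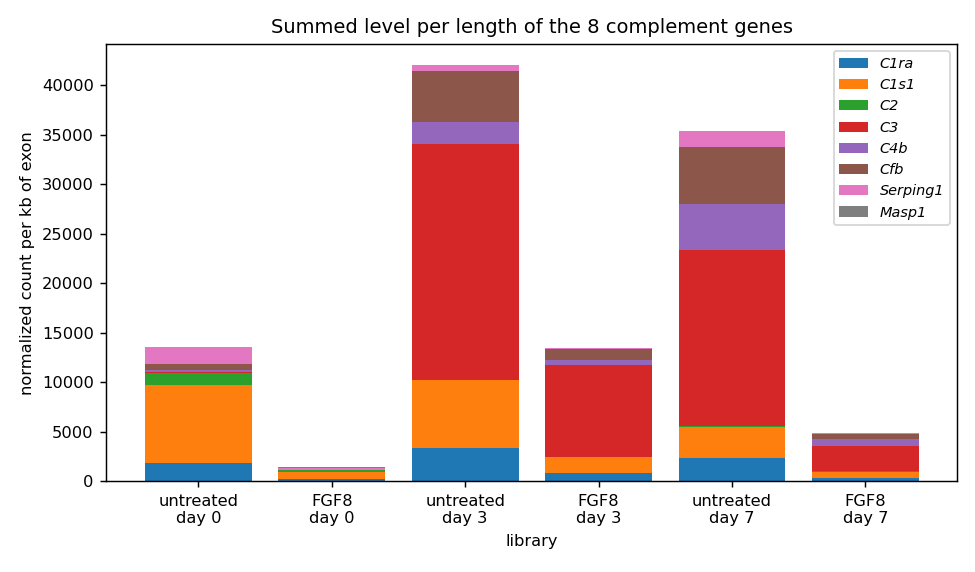
Summed level of the 8 genes in each library, as normalized counts per kb of exon on a linear axis, with 1 coloured section per gene. The sum was 13546, 42073 and 35352 in untreated cells and 1404, 13432 and 4871 after FGF8, and C3 made up most of each day 3 and day 7 bar.

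The make-up of this complement transcript pool differed between day 0 and the later days under both treatments. Per kb of exon, C1ra and C1s1 made up 71.6% of the sum in untreated cells at day 0 and 68.0% after FGF8, and C3 0.952% and 0.669%. By day 3, C3 made up 56.7% and 69.1%, and by day 7 50.2% and 53.1%. The share of Cfb was lower after FGF8 at day 7, at 9.08% against 16.4%. As a share of all counts in a library, the 8 genes took 0.198%, 0.771% and 0.598% in untreated cells and 0.0247%, 0.237% and 0.0824% after FGF8.

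Near-identical copies of 3 members lie beside them, and how reads with several matches were counted is not given in the sources used here. C1rb took between 0.186% and 2.70% of the counts of the C1ra and C1rb pair, C1s2 between 0.281% and 1.05% of its pair with C1s1, and C4a between 0.315% and 2.40% of its pair with C4b in 5 libraries and 12.5% in the FGF8 library of day 0. Summing each pair left the FGF8 fold changes nearly as they were, the largest shift being C4b at day 0, from -4.76 to -4.60. C4a itself had log2 fold changes of -1.49, -0.25 and -0.15 at days 0, 3 and 7, beside -4.76, -2.30 and -2.66 for C4b.

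Of 46 other complement genes from all pathways, 10 had 0 counts in every library and 6 more never passed 3 counts. All 3 chains of C1q were among those at 0, which allows a level of up to 0.183 CPM in the shallowest and 0.0778 CPM in the deepest library, so the C1r and C1s transcripts were measured in cells without detected C1q transcript. Of the terminal pathway genes, C6 and C8b were at 0 and C9 had 1 count in all. Others were detected: C8g at 24.3 to 336 normalized counts, and Hc at 235 in untreated cells and 90.9 with FGF8 at day 0. Of the receptors, C3ar1 had at most 4 counts, C5ar1 at most 1, Itgam at most 3 and Itgax at most 6. At day 0 Itgb2 was at 221 normalized counts with FGF8 and 48.5 in untreated cells, and Cr2 at 74.3 and 17.6. With FGF8 both were lower at days 3 and 7, Itgb2 at 13.3 and 9.76 and Cr2 at 9.13 and 4.06. Of the 46, the genes compared were those averaging 20 normalized counts or more in the pair. At day 0, 7 of 13 were at least 2-fold lower with FGF8 and 2 higher. At day 3, 6 of 16 were lower and 1 higher, and at day 7, 5 of 15 were lower and 0 higher. Over all genes 10.8%, 12.1% and 8.74% were lower on these days, and 7.27% higher at day 0. Their median log2 fold changes were -1.20, -0.35 and -0.17.

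The edgeR quasi-likelihood test could be run on 21 of the 46 and called 1 lower and 0 higher, where 1.25% of all genes were called lower. That gene, Colec12, a scavenger receptor of the collectin family, was at 13436, 6194 and 1884 normalized counts in untreated cells and 5437, 1963 and 653 after FGF8, and fell by 1.52 (SE 0.146, edgeR adjusted p = 0.0429). Clu, which encodes clusterin, an inhibitor of the terminal complex, was at 131, 507 and 451 in untreated cells and 108, 114 and 74.0 after FGF8. Vtn, encoding vitronectin, which also binds the terminal complex, was at 66.1, 102 and 53.2 against 2.56, 43.5 and 10.6, the first of which rests on 2 counts (log2 fold change -4.24, counting interval -7.78 to -2.75). Neither passed the edgeR quasi-likelihood test (Clu -1.74, edgeR adjusted p = 0.152, and Vtn -2.37, edgeR adjusted p = 0.138).

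Cfd, encoding adipsin, the adipocyte protease that cleaves factor B, had 0 counts in both day 0 libraries. It was at 1984 normalized counts in untreated cells and 2163 after FGF8 at day 3, and at 533 and 150 at day 7. Its log2 fold change with FGF8 was therefore 0.12 at day 3, where that of Cfb was -2.21, and -1.83 at day 7. Cr1l, the membrane regulator Crry that protects mouse cells from their own complement, was at 642, 743 and 767 in untreated cells and 991, 703 and 787 after FGF8, with log2 fold changes of 0.63, -0.08 and 0.04.

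**Figure D4:**
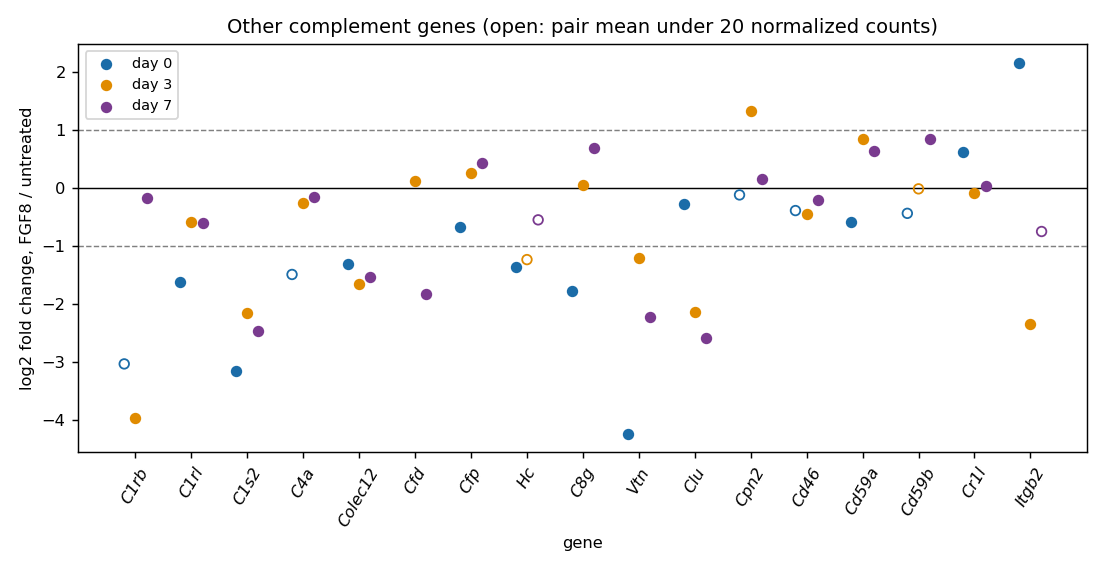
Log2 fold change of FGF8 over untreated cells for 17 other complement genes that averaged 20 normalized counts or more across libraries. Open circles mark pairs with a mean under 20, no point is drawn where both libraries had 0 counts (Cfd at day 0), and the points lie on both sides of 0, from -4.24 (Vtn, day 0) to 2.17 (Itgb2, day 0).

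Interferon, interleukin-6, interleukin-1, TNF and C/EBP signalling are known to raise transcription of several complement genes, and 16 genes were read as a list, which held receptors and transcription factors of these pathways and of NF-kB together with the glucocorticoid receptor Nr3c1. By the 2-fold rule 2 of the 16 were lower and 1 higher with FGF8 at day 0, near the shares over all genes (10.8% lower and 7.27% higher). At day 3, 5 of the 16 were lower and 0 higher, and at day 7, 4 were lower and 0 higher. Both counts of lower genes are above the shares over all genes, 12.1% at day 3 and 8.74% at day 7. Il6st, the shared receptor chain gp130, was at 24188, 9119 and 7137 normalized counts in untreated cells and 9302, 3201 and 3253 after FGF8. It fell by 1.36 on the log2 scale (edgeR adjusted p = 0.0464, lower in 3 of 3 days) and was the 1 gene of the list that the edgeR quasi-likelihood test called. Cebpb had log2 fold changes with FGF8 of 1.02, 0.67 and 0.26 at days 0, 3 and 7, and Cebpd of 0.30, -1.54 and -1.87, both C/EBP factors that bind inflammatory gene promoters.

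Among the members themselves, C1ra and C1s1 had the most similar profiles over the 6 libraries, with a root-mean-square difference of 0.551 between log2 profiles centred on their means, and C3 and Masp1 the least similar, with 6.07. In all, 11381 genes averaged 100 normalized counts or more, the members included, and each member was compared with those outside the members. The profile most like that of C1ra was Dpt (0.192), and the nearest were Sfrp2 for C1s1 (0.301), Pdgfrl (0.288) and Gbp9 (0.292) for C2, and Hp for C3 (0.744). The nearest to C4b was Tmem178 (0.458), to Cfb Cpz (0.423), to Serping1 Wnt16 (0.426) and Ly6a (0.436), and to Masp1 Pak3 (0.364). C3 had the least close neighbour of the 8.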

How the data were processed

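RNA was sequenced in 6 libraries of immortalized brown preadipocytes, 1 per condition (stranded Illumina mRNA kit). The authors trimmed reads with Trim Galore, aligned them to mm39 (GRCm39) with HISAT2 and deposited counts per gene (featureCounts) without normalization. Tool versions, annotation, strand setting and the treatment of multi-mapping reads are not given in the sources used here. Counts were divided by DESeq2 1.42.0 median-of-ratios size factors. Fold changes are differences of log2(normalized count + 1) with 95% Clopper-Pearson intervals, and 2-fold calls need a mean of at least 20 in the pair. The edgeR 4.0.16 quasi-likelihood test (TMM, filterByExpr, Benjamini-Hochberg adjustment) used all 6 libraries with treatment and day as terms, leaving 2 residual degrees of freedom. It was tried on simulated data in which each changed gene had the same 4-fold effect on every day. That trial does not cover responses that differ between days. Scripts ran in Python 3.11.15 (pandas 2.3.3, scipy 1.17.1) and R 4.3.3. Lengths, loci and promoters come from GRCm39 with GENCODE M39. Members, lists and motifs were chosen with earlier results of these data known. Named genes are the members, list genes and, per member, up to 3 genes of nearest profile. Alternatives were other scalings, pseudocounts (0.5, 5), a minimum mean of 100, 1.5-fold and 4-fold rules, other fits and leaving out each day. Proteins were not analysed here. The result of 1 single list gene is not reported here.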

Additional observations from a re-analysis of the deposited data

Results flagged for a closer look

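Masp1 changed in opposite directions with FGF8 on 2 days, each beyond its counting interval: its log2 fold change was 1.44 at day 0 and -2.48 at day 3. C1s1 moved in opposite directions from day 0 to day 3 under the 2 treatments, by -0.19 in untreated cells and 1.13 after FGF8. Cfb did so from day 3 to day 7, by 0.17 in untreated cells and -1.33 after FGF8. The untreated values of C1s1 and Cfb are small and move with the scaling, to -0.09 for C1s1 with TMM and to 0.026 for Cfb with total counts, without changing sign. With 1 library per condition, none of these differences between days or treatments was tested.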

How the results depend on the processing

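The fold changes of single members between 2 libraries kept their direction under the other scalings and pseudocounts, except C2 from day 3 to day 7 in untreated cells (0.14, and -0.0076 with total counts), with log2 shifts of at most 0.206 (total counts), 0.101 (TMM), 0.0703 (size factors within the pair), 0.0347 (pseudocount 0.5) and 0.250 (pseudocount 5). Counts of members depend on the fold asked for. For pairs of libraries, the share over all genes was computed for the main 2-fold rule only. The counts below have no such share beside them, so they show only how the number of members moves with the setting. With a 4-fold rule, 0 members were higher with FGF8 at day 0 and 5 lower at day 3, 1 was lower from day 0 to day 3 and 1 lower and 0 higher from day 3 to day 7 in untreated cells, and 3 were higher from day 0 to day 3 and 0 lower from day 3 to day 7 after FGF8. From day 3 to day 7, total counts gave 1 higher and a mean of at least 100 gave 1 lower in untreated cells, and a 1.5-fold rule gave 1 higher after FGF8. A mean of at least 100 also left 7 lower with FGF8 at day 3, total counts left 4 higher from day 0 to day 3 after FGF8 (C1s1 at 0.93), and a 1.5-fold rule gave 4 higher from day 0 to day 3 in untreated cells. The number of members that edgeR called lower with FGF8 was 3 with DESeq2 size factors and 0 without the day block, and without 1 day ranged from 0 to 7. Without the day block 3 members had an unadjusted p under 0.05, beside 575 of 13868 genes. The cause was not tested. DESeq2 called 1 member lower at day 7 against day 3, beside 472 of 14569 genes. The shared effect on Masp1 turned to 1.03 without the day block and to 0.71 without day 3, neither past the threshold. Over all genes edgeR called 182 lower and 3 higher, DESeq2 1229 and 451, edgeR with DESeq2 size factors 109 and 1, with no filter 406 and 13, without the day block 0 and 0, without day 0 1661 and 569, and without day 3 or day 7 0 and 0. Depth limits C4b and C3 at day 0, Masp1 at days 3 and 7 and C2 at day 7 after FGF8, with 28 to 62 counts each.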
